A study of Mus musculus and Rattus norvegicus with 32 samples.

Results

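The troponins and tropomyosins are the regulatory proteins of the thin filament, and 10 of their genes were followed in the RNA of mouse hearts and of rat heart muscle cells. The genes were Tnnt1, Tnnt2, Tnnt3, Tnni1, Tnni3, Tnnc1, Tpm1, Tpm2, Tpm3 and Tpm4. They were found by their symbols among the 55487 genes of the mouse tables (24 libraries) and among the 32883 genes of the rat table (8 libraries), and all 10 were present in both. The study asked how METTL5, an enzyme that writes N6-methyladenosine (m6A) on RNA, acts in the heart, and every group held 4 libraries. Hearts of C57BL/6 mice came from 1-month-old METTL5-KO mice and controls, from 3-month-old METTL5-cKO mice and controls, and from METTL5-cKO mice and controls 4 weeks after TAC (transverse aortic constriction, which puts the left ventricle under pressure overload) that were labelled 3 months old. In the METTL5-cKO mice, floxed exons of Mettl5 were removed by αMHC-Cre (Myh6-Cre), a driver active in cardiomyocytes, so that the other cells of these hearts kept the gene. The METTL5-KO mice at 1 month were not restricted in this way. The characteristics call the cKO mice Mettl5-KO, while the titles call them cKO, and the sources used here do not say whether the controls carried Cre. NRVMs (neonatal rat ventricular cardiomyocytes, from Sprague Dawley rats at postnatal day 2, pre-plated to deplete fibroblasts) were transduced with an adenovirus carrying the human METTL5 coding sequence (AdMETTL5) or GFP (AdGFP), and both groups received 20 µM phenylephrine (PE), a hypertrophic agent, for 24 h. No unstimulated NRVMs were analysed here.

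In striated muscle, tropomyosin lies along actin and covers the sites to which myosin binds. The troponin complex holds it there: troponin T anchors the complex to tropomyosin, troponin I inhibits the contact of actin and myosin, and troponin C binds calcium and lifts the inhibition. The adult ventricle uses Tnnt2 (cardiac troponin T), Tnni3 (cardiac troponin I), Tnnc1 (the troponin C of cardiac and slow skeletal muscle) and, in the mouse, mainly Tpm1. The fetal heart expresses Tnni1 (slow skeletal troponin I), which Tnni3 replaces after birth. Tnnt1 and Tnnt3 are the slow and fast skeletal troponin T genes, Tpm2 encodes a β-tropomyosin of striated and smooth muscle, and Tpm3 and Tpm4 also make cytoskeletal tropomyosins of non-muscle cells.

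Group medians of the total count per library lay between 14480928 and 21664672, and within NRVMs the AdMETTL5 libraries (14324700 to 14642431) were shallower than the AdGFP libraries (17344430 to 18085339). Levels are given as CPM, a gene's counts divided by its library's size in units of 1000000 counts, with sizes scaled by edgeR's TMM method. Within a table the libraries of that table were scaled together, and wherever tables are compared all 24 heart libraries were scaled together, so that the CPM of a library differs somewhat between both scales. The count of the whole Mettl5 gene did not separate the genotypes. It was 7.36 CPM in control and 6.51 CPM in cKO hearts at 3 months (adjusted p = 0.884, quasi-likelihood test of edgeR, Benjamini-Hochberg) and 6.75 and 6.59 CPM after TAC (0.874). At 1 month it was 5.12 CPM in control hearts and 5.97 CPM in the hearts labelled METTL5-KO (0.973), a mean in the direction opposite to the label. Reads from exons outside a deletion count in this value, so it does not check the labels, and the groups rest on them. In NRVMs the rat gene was at 17.0 CPM with AdGFP and 21.2 CPM with AdMETTL5 (adjusted p = 0.00295). This is the count of the rat gene, and whether reads of the virus's human sequence fell on it was not tested. Control library 1 at 1 month stood apart from the other 3 in several members, as given below. In hearts all 8 cardiomyocyte markers examined, and in NRVMs the 7 that the rat table lists, were well above 0 in every group. The sources do not say that the libraries of a group came from separate animals or cultures, so p-values measure the spread between these libraries. RNA of whole hearts also cannot tell fewer cells of one type from less RNA per cell.

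In the mouse genome (GRCm38), Tnnt1 (ENSMUSG00000064179, chr7:4504570-4516382) and Tnni3 (ENSMUSG00000035458, chr7:4518305-4524229) lie 1922 bases apart on the minus strand with no gene between them. Tnni1 (ENSMUSG00000026418, chr1:135779434-135810989) and Tnnt2 (ENSMUSG00000026414, chr1:135836354-135852260) lie 25364 bases apart on the plus strand with 1 gene between them. The others lie apart: Tnnt3 at chr7:142498836-142516009, Tnnc1 at chr14:31208312-31211729, Tpm1 at chr9:67022590-67049406, Tpm2 at chr4:43514711-43523765, Tpm3 at chr3:90072649-90100902 and Tpm4 at chr8:72134975-72153142. Thus the fetal troponin I gene has the adult troponin T gene as its near neighbour, and the adult troponin I gene has the slow skeletal troponin T gene. Exons of Tnni3 share 86 bases with exons of Dnaaf3 on the same strand, and exons of Tpm4 share 134 bases with Gm26586, an antisense gene. The strand setting of the counting is not stated in the sources used here, so reads of these stretches could count for either gene. RefSeq's promoter table (GRCm38.p6) had entries for 9 of the 10 members, and Tnnt3 had none. The 250 bases before the start are shown for the neighbours Tnni3 and Tnnt1, the 2 members that passed the test after TAC, and for the fetal gene Tnni1. Positions are chr7:4522529-4522778 (minus strand) for Tnni3, chr7:4515976-4516225 (minus strand) for Tnnt1 and chr1:135799171-135799420 (plus strand, 1 of its RefSeq starts) for Tnni1. Each line runs 5′ to 3′ along the gene's strand, and capitals mark the letters of short motifs that were searched on both strands.
Tnni3: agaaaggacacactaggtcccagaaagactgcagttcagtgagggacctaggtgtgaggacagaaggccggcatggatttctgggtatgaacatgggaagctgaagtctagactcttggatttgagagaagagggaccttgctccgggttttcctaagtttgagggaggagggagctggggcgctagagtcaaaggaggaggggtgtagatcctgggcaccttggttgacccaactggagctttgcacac
Tnnt1: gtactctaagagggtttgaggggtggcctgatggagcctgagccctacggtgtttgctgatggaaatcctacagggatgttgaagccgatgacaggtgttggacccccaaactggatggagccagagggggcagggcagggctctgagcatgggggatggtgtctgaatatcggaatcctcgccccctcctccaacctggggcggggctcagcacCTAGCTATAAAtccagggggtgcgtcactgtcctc
Tnni1: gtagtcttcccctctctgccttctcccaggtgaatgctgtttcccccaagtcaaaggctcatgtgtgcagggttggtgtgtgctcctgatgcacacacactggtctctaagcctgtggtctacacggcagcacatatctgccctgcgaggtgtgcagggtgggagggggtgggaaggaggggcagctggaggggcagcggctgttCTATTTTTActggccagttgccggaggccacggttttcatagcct

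The letters TATAAA were searched as the core promoter element that sets the start in many genes. For transcription factors of the GATA family the letters were GATAA. The M-CAT element, which TEAD factors bind, was searched as CATTCC. For MEF2 a loose string was used, CTANNNNTA, which allows any base at its 4 middle positions. A match to it therefore need not be a MEF2 site. In the windows shown, Tnnt1 held TATAAA from 30 to 25 bases before the start. A CTANNNNTA match from 35 to 27, with G and C among its middle bases, overlapped it. Tnni1 held CTANNNNTA from 45 to 37 bases before the start, and the window of Tnni3 held none of the 4 strings. Over all entries of the 9 members, TATAAA was found for 1 member (Tnnt1), GATAA for 2 (Tnnt2 and Tpm3), CATTCC for 3 (Tnnt2, Tnnc1 and Tpm1) and CTANNNNTA for 4 (Tnni1, Tnnt1, Tnnt2 and Tpm3). Of the 32851 windows of the table, 12.4%, 22.6%, 12.6% and 19% held these motifs in the same order. Some members have several entries, and a match gives the letters in the window, not bound protein.

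In control hearts the 10 genes formed 3 tiers. To compare genes, CPM of the joint scale was divided by the merged length of all annotated exons in kilobases (CPM per kb). At 3 months the adult cardiac set led with mean levels of 1688 CPM per kb for Tnni3, 1514 for Tnnc1, 926 for Tpm1 and 697 for Tnnt2. Tpm4 followed at 37.1 CPM per kb, then Tpm3 at 6.14, Tnnt1 at 4.50 and Tpm2 at 4.31. Tnnt3 and Tnni1 had 0 counts in all 4 libraries, which allows up to 0.141 CPM by counting error alone (3 counts per library). In this order the libraries of Tnni3 and Tnnc1 overlapped, as did those of Tnnt1 and Tpm2, and the other neighbours above 0 did not. With the length of the longest transcript in place of merged exons the order was the same, but Tnni3 (3818 CPM per kb) was then separate from Tnnc1 (2186), Tnnc1 overlapped with Tpm1 (2079) and Tnnt1 was separate from Tpm2. After TAC the lead depended on the length: Tnnc1 (2092) stood above Tnni3 (1645) per merged exons, and Tnni3 (3721) above Tnnc1 (3021) per longest transcript.

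**Figure D1:**
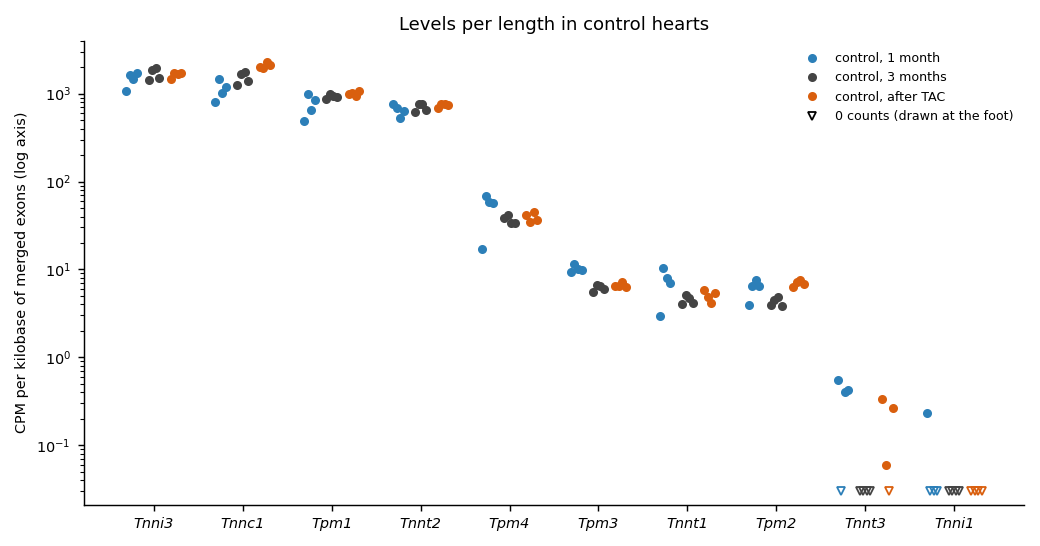
Levels of the 10 genes in the control hearts, as CPM per kilobase of merged exons on a log axis, with a point for each of the 4 libraries of a group and open triangles at the foot for libraries with 0 counts. Tnni3, Tnnc1, Tpm1 and Tnnt2 sit far above the others, and Tnni1 is at 0 in all control libraries at 3 months and after TAC.

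Control hearts at 3 months differed from those at 1 month in 4 of the 10 members, 1 higher and 3 lower, where 36.6% of the 17597 genes tested passed (18.1% higher and 18.5% lower). The lower members include Tnnt3, which had 0 counts at 3 months and passed the filter on low counts through other groups. On the joint scale Tpm3 fell from 56.9, 70.5, 61.4 and 60.6 CPM to 33.4, 40.0, 39.6 and 36.5 CPM, with no overlap (log2 fold change -0.74, standard error 0.0960, adjusted p = 1.32e-05). Tpm2 went from 17.7 to 12.5 CPM on average (-0.50, adjusted p = 0.0395), and Tnnc1 rose from 1165 to 1576 CPM (0.44, adjusted p = 0.0234). Tnnt3, at 0.872, 0, 0.640 and 0.667 CPM at 1 month, had 0 counts in every library at 3 months (adjusted p = 0.0201). Tnnt1 stood at 15.6 and 9.91 CPM (-0.65, adjusted p = 0.0508, not called). Tnni3 (0.19, adjusted p = 0.349), Tnnt2 (0.10, adjusted p = 0.506), Tpm1 (0.30, adjusted p = 0.103), Tpm4 (-0.44, adjusted p = 0.184) and Tnni1 (adjusted p = 0.0679, at 0 at 3 months) did not pass the test. These p-values come from a single edgeR fit over all 24 mouse libraries, adjusted by Benjamini-Hochberg, and age and table cannot be told apart in this contrast. Without control library 1 at 1 month, 5 members were lower and none higher: Tnnt1 (adjusted p = 0.00133) and Tpm4 (adjusted p = 0.000759) were called and Tnnc1 was lost (adjusted p = 0.0671). That library held 37.7 CPM of Tpm4 against 124 to 152 in the other 3, and 6.52 CPM of Tnnt1 against 15.6 to 22.6. Tpm2 was called in 2 of the 8 fits that each left out 1 library and Tnnc1 in 4, whereas Tpm3 was called in all 8. In a fit of these groups alone Tpm3 was the 1 member called: Tpm2 (adjusted p = 0.0776) and Tnnc1 (0.137) were lost, and Tnnt3 did not pass the filter on low counts, which it passes in the fit of 24 libraries through other groups. Cardiomyocyte markers were higher at 3 months for 7 of 8, and markers of other cells were lower for 4 of 8 (fibroblast), 4 of 7 (smooth muscle, with 1 higher), 2 of 6 (endothelial) and 2 of 6 (macrophage). Their part in the member values was not tested.

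Share by share, troponin I was adult at both ages. Tnni1 had counts in 1 of 4 control libraries at 1 month (20 counts, 0.0214% of Tnni1 plus Tnni3 per merged exons) and in none at 3 months. The skeletal genes Tnnt1 and Tnnt3 together made up 1.17% ± 0.501 of troponin T per merged exons at 1 month and 0.640% ± 0.0222 at 3 months (SD, n = 4). Tpm1 made up 92.0% ± 1.85 and 95.1% ± 0.353 of the 4 tropomyosin genes. Tpm4, the next of them, made up 5.90% ± 1.94 and 3.81% ± 0.383. Shares are descriptions and were not tested.

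In the hearts labelled METTL5-KO at 1 month, none of the 9 members tested passed (0 of 9, where 0.00612% of 16329 genes did, 1 gene in all, and 747 had an unadjusted p under 0.05). DESeq2 also called 0 members. None of the 9 had groups that did not overlap, against 3.01% of all genes. Cardiac troponin I was at 2094, 3135, 2839 and 3382 CPM in control and 2878, 2739, 2886 and 3008 CPM in METTL5-KO hearts. The KO libraries lay within the range of the controls (log2 fold change 0.01, 95% interval -0.37 to 0.38). Tnnt2 had a log2 fold change of -0.03 (-0.38 to 0.32), Tnnc1 -0.04 (-0.45 to 0.37) and Tpm1 0.22 (-0.26 to 0.70). The intervals of these 4 genes reach 0.70 on the log2 scale, and differences within them were not detectable at this spread. Tnnt3, at 0 in 3 of the 4 KO libraries and 0.574 CPM in the other, had a log2 fold change of -1.74 with a standard error of 1.16. Tnnt1 (0.05), Tpm2 (-0.10), Tpm3 (-0.09) and Tpm4 (0.06) stood near 0 on the log2 scale, and the adjusted p of the 9 ranged from 0.973 to 1. Tnni1 was too low to be tested, with counts of 11 and 8 in a pair of KO libraries, 20 in 1 control library and 0 in the rest. Of 19 other thin filament genes and 14 thick filament genes 0 passed in either direction, as of the markers of every cell type examined.

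In METTL5-cKO hearts at 3 months, before pressure overload, 0 of the 8 members tested passed (0.0732% of 16391 genes did, and 1155 had an unadjusted p under 0.05). Tpm4, which also serves the cytoskeleton of non-muscle cells, was at 88.2, 96.0, 76.8 and 77.0 CPM in control and 73.4, 60.0, 59.6 and 73.2 CPM in cKO hearts. Every cKO library lay below every control library, the 1 member of 8 with that pattern, against 4.23% of all genes. On the log2 scale the difference was -0.34 with a standard error of 0.113 (adjusted p = 0.521, edgeR), and an exact two-sided permutation test of its log2 CPM gave p = 0.0286, the smallest that 4 against 4 libraries allow. Tpm3 (38.7 and 32.7 CPM, -0.24, adjusted p = 0.708) and Tnni3 (3604 and 3017 CPM, -0.26, 95% interval -0.55 to 0.04, adjusted p = 0.776) did not pass. Tpm2 (-0.18), Tnnt2 (-0.09), Tnnc1 (0.07), Tpm1 (-0.04) and Tnnt1 (0.01) had smaller differences on the log2 scale, none of them called. Markers of the 6 cell types examined passed for 0 genes. Of the 10 skeletal muscle markers 3 could be tested, with log2 fold changes from -0.06 to 1.25 (median 0.90). Their relation to the counts of Tnni1 and Tnnt3 given below was not tested. Tpm1 made up 94.8% to 95.5% of the tropomyosin genes in control and 95.7% to 96.2% in cKO hearts, per merged exons, without overlap.

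The fetal and the fast skeletal gene, Tnni1 and Tnnt3, had counts in every cKO and in no control library at 3 months, at levels close to 0. Tnni1 had 14, 10, 10 and 9 counts in the 4 cKO libraries at 3 months and 0 in all 4 control libraries. Its mean level of 0.495 CPM was at least 3.50-fold higher than the floor of 3 counts per library. Tnnt3 had 23, 14, 9 and 3 counts in cKO and 0 in control libraries (at least 3.97-fold higher). Neither passed edgeR's filter on low counts, so neither was tested in the main analysis. Without the filter, edgeR did not call either (adjusted p = 0.119 for Tnni1 and 0.511 for Tnnt3), whereas DESeq2 called both (0.000676 and 0.0035). With all controls at 0, these calls rest on the cKO counts alone, and the counts are given as a description. For scale, Tnni1 was 0.00962% ± 0.00281 of troponin I per merged exons in these cKO hearts (n = 4).

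After TAC, 2 of the 9 members tested were lower in METTL5-cKO hearts and none was higher. Both are troponin genes of the same locus, Tnni3 and its neighbour Tnnt1. Among all 16340 genes 12.7% passed, and 6.1% passed and were lower. Cardiac troponin I, which inhibits contraction when calcium is low, was at 3168, 3629, 3564 and 3676 CPM in control and at 1764, 1653, 1693 and 2712 CPM in cKO hearts. Every cKO library lay below every control library, and cKO library 4 lay between the other cKO libraries and the controls. The level in cKO hearts was 55.7% of control (log2 fold change -0.84, standard error 0.163, 95% interval -1.21 to -0.48, adjusted p = 0.0155, edgeR with Benjamini-Hochberg adjustment). The exact permutation test gave p = 0.0286. Leaving out 1 library at a time, the adjusted p ranged from 0.000156 to 0.0541. The call was lost without cKO library 2 (0.0529) and without control library 4 (0.0541), with a log2 fold change of -0.77 and -0.81, and kept in the other 6 fits.

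Slow skeletal troponin T, Tnnt1, is a minor gene in the ventricle. It was at 13.4, 11.0, 9.52 and 12.4 CPM in control and at 4.91, 4.69, 6.06 and 9.79 CPM in cKO hearts. The groups overlapped, since cKO library 4 lay above control library 3. On the log2 scale it differed by -0.87 with a standard error of 0.224 (adjusted p = 0.0357), close to Tnni3, and the exact permutation p was 0.0571. This call was fragile: it was kept in 1 of the 8 fits that left out a library, the one without cKO library 4 (adjusted p = 0.00119), and the others gave 0.0575 to 0.0998. It was also lost with no filter on low counts (0.0789). Counts of Tnnt1 per 1000 counts of Tnni3 were 3.33 ± 0.673 in control and 3.20 ± 0.453 in cKO hearts after TAC (SD, n = 4), so the ratio of these neighbours differed by less than the spread between libraries. None of the 9 members was dysregulated, that is, also past a log2 fold change of 1 in either direction, against 2.9% of all genes.

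The cardiac troponin T gene Tnnt2 was at 5477, 6125, 6059 and 5956 CPM in control and at 5083, 4231, 4834 and 5436 CPM in cKO hearts. All cKO libraries lay below the controls, but the test did not call it (log2 fold change -0.27, standard error 0.104, adjusted p = 0.112, exact permutation p = 0.0286). DESeq2 called it (adjusted p = 0.0246), as did edgeR without cKO library 4 (adjusted p = 0.0286). Of the 9 members tested, Tnni3 and Tnnt2 had groups that did not overlap, where 18.6% of all genes did. Tnnc1, the calcium sensor, was at 2252 CPM in control and 2059 CPM in cKO hearts (-0.13, 95% interval -0.37 to 0.11, adjusted p = 0.443). Thus troponin C did not pass in the hearts in which troponin I was lower, and whether these genes differ in their response was not tested.

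Among the tropomyosins after TAC none passed. Tpm1, the main cardiac gene, was at 6742 ± 352 CPM in control and 5955 ± 640 CPM in cKO hearts (log2 fold change -0.18, 95% interval -0.42 to 0.06, adjusted p = 0.285). Tpm2 was at 21.0 and 22.6 CPM, with cKO library 4 at 33.1 CPM and the other cKO libraries at 16.5 to 21.9 (0.10, adjusted p = 0.758). Tpm3 was at 41.4 and 41.3 CPM (-0.00, 95% interval -0.18 to 0.17). Tpm4 was at 89.4 and 84.9 CPM (-0.07, 95% interval -0.40 to 0.25), and the values of Tnnc1, Tpm3 and Tpm4 changed sign with scaling by library size alone.

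Tnni1 was again at 0 counts in all 4 control hearts after TAC and had 7, 20, 48 and 15 counts in the cKO hearts, at least 6.55-fold above the floor (0.149 CPM). It was not tested in the main analysis, since it did not pass the filter on low counts. The fit with no filter and 5 of the 8 fits that left out a library did test it (edgeR, adjusted p from 0.0197 to 0.0534). With all controls at 0 it entered them through the cKO group alone, so no call is drawn from them. The level remained a trace: 0.0307% ± 0.0250 of troponin I per merged exons, with 0.0656% in the highest library. Tnnt3 had 11, 2, 0 and 9 counts in control and 28, 0, 28 and 15 in cKO hearts (log2 fold change 1.51, standard error 0.886, adjusted p = 0.282). Tnnt1 and Tnnt3 together made up 0.712% ± 0.154 of troponin T in control and 0.523% ± 0.133 in cKO hearts.

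**Figure D2:**
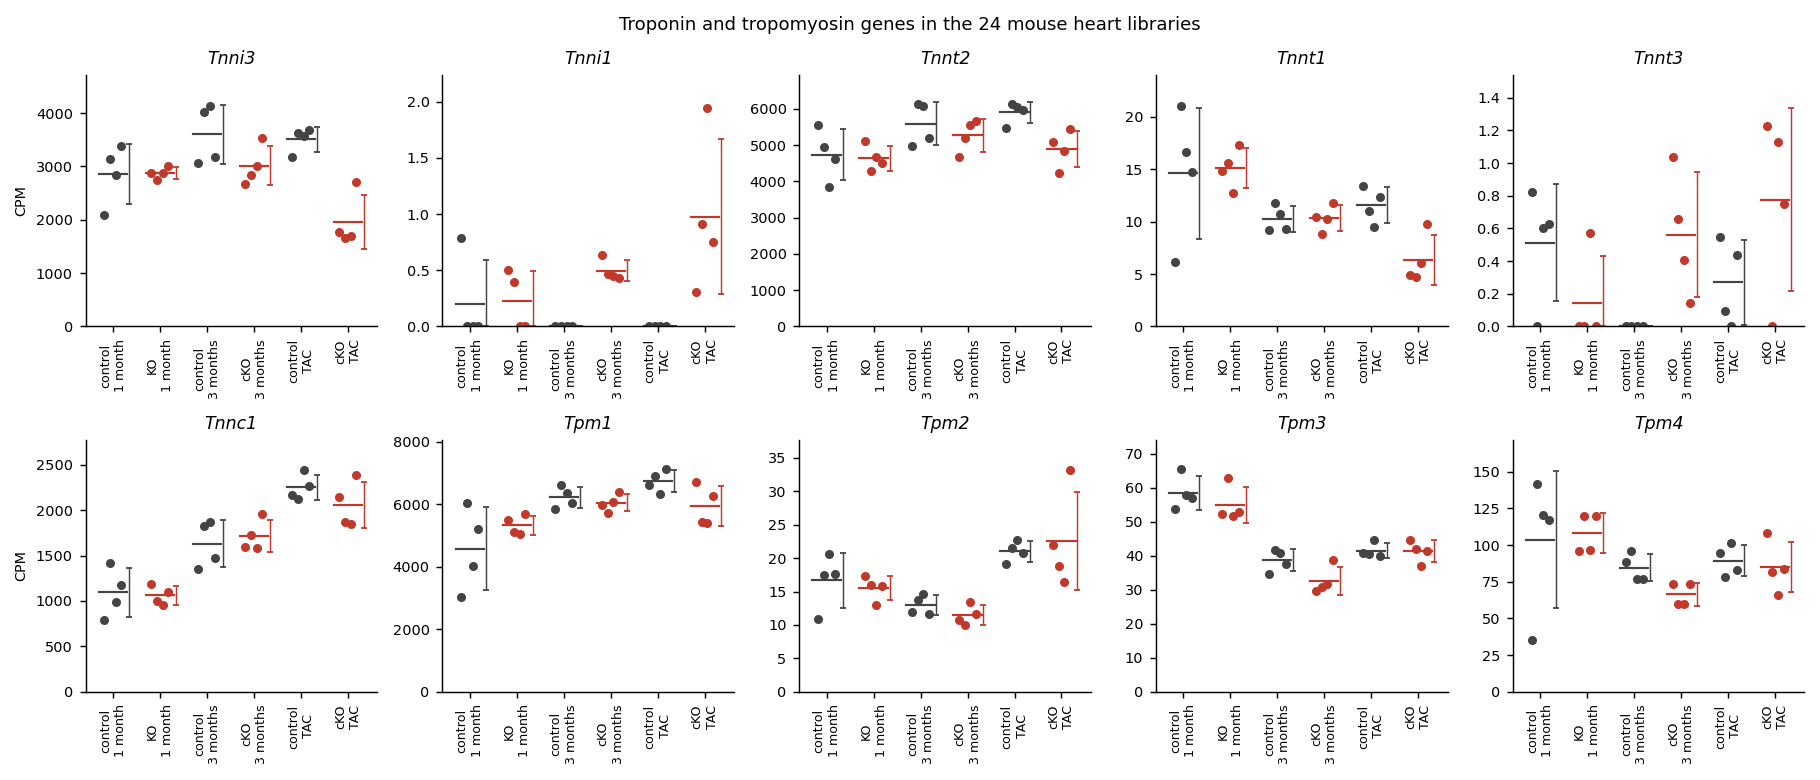
CPM of the 10 genes in the 24 mouse heart libraries, a point per library, with the mean as a line and the SD as a bar (n = 4 per group). Each pair of groups is scaled within its own table, so levels compare within a pair. After TAC the 4 cKO libraries of Tnni3 lie between 1653 and 2712 CPM, below all control libraries (3168 to 3676), and Tnni1 has counts in cKO but not in control hearts at 3 months and after TAC.

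Markers of other cell types differed between the groups after TAC along with these genes. Of the fibroblast markers, 7 of 8 were higher in cKO hearts (median log2 fold change 1.25, all genes -0.00), and their summed level was 578 to 767 CPM in control and 924 to 2987 CPM in cKO hearts. cKO library 4, which had the highest Tnni3 and Tnnt1 of its group, had the lowest fibroblast sum (924) and the highest cardiomyocyte sum of the cKO hearts. Endothelial markers were lower for 5 of 6 (585 to 698 and 407 to 537 CPM), macrophage markers higher for 2 of 6, and smooth muscle markers higher for 1 and lower for 2 of 7. The cardiomyocyte markers passed for 0 of 8, with a sum of 20149 to 24721 CPM in control and 18030 to 21275 CPM in cKO hearts. Of the skeletal muscle markers, from a tissue that expresses Tnni1, Tnnt1 and Tnnt3, 3 of 10 could be tested and 0 passed. Myh1, Myh2, Myh4, Actn3 and Myog were at 0 in every library of both groups. Mylpf, Tnni2, Tnnc2 and Ckm had counts in both groups, and Pvalb in the controls only. Set against the cardiomyocyte sum, a measure chosen after the values were seen, Tnni3 was 153 ± 17.0 CPM per 1000 CPM of these markers in control and 100 ± 18.4 in cKO hearts (SD, n = 4). These groups still did not overlap (137 to 177 and 87.4 to 127), and the share of all genes that separate on this scale was not computed. Tnnt1, the other member called, was 0.502 ± 0.0589 in control and 0.325 ± 0.0983 in cKO hearts on the same scale, with overlap. Tnnt2 was 258 ± 29.1 and 253 ± 20.4, Tnnc1 98.6 ± 15.4 and 106 ± 6.73, and Tpm1 293 ± 14.9 and 308 ± 28.2. The part of the fibroblast and endothelial shift in the member values was not tested.

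Other genes of the sarcomere gave a mixed picture after TAC. Of 19 other thin filament genes tested, 3 were higher and 0 lower (median log2 fold change 0.16, all genes -0.00): Acta1, the skeletal α-actin that the fetal heart also uses (1076 to 3305 CPM on average, 1.62, adjusted p = 0.00227), Cfl2, a muscle cofilin (0.51, adjusted p = 0.0167), and Xirp1, an actin-binding Xin protein (0.69, adjusted p = 0.0173). Of 14 thick filament genes, 1 was higher and 3 lower (median 0.08). The higher gene was Mybpc2, a skeletal myosin-binding protein C (1.28, adjusted p = 0.00128). The lower genes were Myh7b (-0.81, adjusted p = 0.0174) and the ventricular light chains Myl2 (-0.75, adjusted p = 0.0182) and Myl3 (-0.37, adjusted p = 0.0399). At 3 months 0 of 19 thin filament genes passed, and of the thick filament genes Myl1 was lower (-1.67, adjusted p = 0.0102).

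Whether the effect of genotype differed between hearts after TAC and hearts at 3 months was tested as an interaction in 1 fit over all 24 mouse libraries. None of the 10 members passed (0.017% of 17597 genes did). DESeq2 called 0 members as well. Tnni3 had the smallest p of them, with a log2 difference of -0.57 (standard error 0.220, unadjusted p = 0.0166, adjusted p = 0.382), and it passed in 1 of the 16 fits that left out a library, the one without cKO library 4 after TAC (adjusted p = 0.0353). Tnnt1 had a difference of -0.86 (standard error 0.365, adjusted p = 0.449). The differences of Tnnt2 (-0.17), Tnnc1 (-0.19), Tpm1 (-0.12), Tpm2 (0.30), Tpm3 (0.25) and Tpm4 (0.29) had adjusted p from 0.592 to 0.914, and Tnni1 and Tnnt3, with groups at 0, had 1 and 0.589. The lower Tnni3 of cKO hearts after TAC is thus not shown to differ from the value at 3 months, where the log2 fold change was -0.26.

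Between tables, control hearts after TAC differed from control hearts at 3 months in 0 of 10 members (0.256% of all genes passed). On the joint scale Tpm2, the β-tropomyosin, was at 11.6, 13.2, 14.1 and 11.2 CPM at 3 months and at 18.4, 20.7, 21.9 and 20.1 CPM after TAC. The groups did not overlap, but the call was not made (log2 fold change 0.69, standard error 0.184, adjusted p = 0.102). It was made by DESeq2 (adjusted p = 0.0219) and in a fit of these groups alone (adjusted p = 0.017). Tnnc1 was at 1576 and 2178 CPM (0.47, adjusted p = 0.146, DESeq2 0.0442). Tnni3 was at 3482 and 3394 CPM (-0.04, 95% interval -0.36 to 0.29). Tnnt1 (0.18), Tnnt2 (0.08), Tpm1 (0.12), Tpm3 (0.10) and Tpm4 (0.08) had adjusted p from 0.647 to 0.904, Tnnt3, at 0 at 3 months, had 0.279, and Tnni1 was at 0 in both groups. In cKO hearts after TAC against cKO hearts at 3 months, 3 of 10 members passed, 2 higher and 1 lower, where 15.3% of all genes did (8.2% higher and 7.1% lower). Tpm2 was at 10.4, 9.62, 13.1 and 11.1 CPM at 3 months and 21.5, 18.4, 16.1 and 32.1 CPM after TAC (0.99, standard error 0.184, adjusted p = 0.000948). Tpm3 was also higher (31.5 to 40.3 CPM, 0.35, adjusted p = 0.015), a call lost without cKO library 1 of either table (0.0584 and 0.0658) and in the fit of these groups alone (0.0502). Tnni3 was lower (2910 to 1909 CPM, -0.61, standard error 0.156, adjusted p = 0.0108), although cKO library 4 after TAC (2632 CPM) lay above the lowest library at 3 months (2587 CPM). The other members did not pass: Tnnt1 (-0.69, adjusted p = 0.0793), Tnnc1 (0.28, 0.21), Tpm4 (0.37, 0.357), Tnni1 (0.999, 0.503), Tnnt2 (-0.09, 0.653), Tnnt3 (0.49, 0.784) and Tpm1 (-0.00, 0.991). Fibroblast markers were higher for 6 of 8 in this contrast of cKO hearts and macrophage markers for 3 of 6, and in the contrast of controls the markers passed for 0 genes. Operation and table cannot be told apart in either contrast, and the contrasts share groups with the comparisons within tables.

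In NRVMs under PE, 6 of the 10 members were lower with AdMETTL5 and 1 was higher, where 52.8% of 15041 genes passed (25.7% lower and 27.1% higher). The lower genes were both troponin I genes, Tnnc1, Tnnt2, Tpm1 and, near the floor and with a limit given below, Tnnt3. Of the other tropomyosin genes (Tpm2, Tpm3 and Tpm4) none was called lower. Fetal troponin I, Tnni1, was at 914, 912, 769 and 811 CPM with AdGFP and at 318, 313, 292 and 302 CPM with AdMETTL5. All AdMETTL5 libraries lay below all AdGFP libraries, and the level was 36.0% of AdGFP (log2 fold change -1.48, standard error 0.0634, adjusted p = 1.45e-08, edgeR with Benjamini-Hochberg adjustment). Tnni3 was at 929, 831, 769 and 812 CPM and at 373, 406, 360 and 379 CPM (45.4%, -1.14, standard error 0.0628, adjusted p = 6.07e-08), again without overlap. Thus both the fetal and the adult troponin I gene were expressed in these neonatal cells, and both fell.

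Troponin C fell about as far as Tnni1. Tnnc1 was at 1892, 1975, 1443 and 1500 CPM with AdGFP and at 648, 639, 565 and 580 CPM with AdMETTL5 (-1.49, standard error 0.0997, adjusted p = 2.49e-07). Tnnt2 was at 5105, 4809, 3975 and 4363 CPM and at 2600, 2675, 2360 and 2132 CPM (53.5% of AdGFP, -0.90, adjusted p = 5.69e-06). Tpm1 was at 5570, 5602, 4349 and 4698 CPM and at 2865, 2936, 2715 and 2574 CPM (54.8%, -0.87, adjusted p = 5.12e-06). In each of these 3 genes the groups were separate, and AdGFP libraries 1 and 2 were higher than libraries 3 and 4. Tnnt3, the fast skeletal gene, had 65, 57, 50 and 52 counts with AdGFP and 0, 15, 13 and 0 counts with AdMETTL5 (-2.82, standard error 0.512, adjusted p = 0.000608). It passed the filter on low counts through the AdGFP group. With at least 10 counts asked of every library it was not tested, and DESeq2 gave an adjusted p of 0.0434. Tnnt1 had 51 to 73 and 50 to 77 counts (0.22, 95% interval -0.18 to 0.62, adjusted p = 0.336). Of the 10 members 4 were dysregulated (Tnni1, Tnni3, Tnnc1 and, with the limit above, Tnnt3, where 5.85% of all genes were), and 7 had groups that did not overlap (48.4% of all genes).

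Tpm4 was the member that rose: 318, 350, 313 and 327 CPM with AdGFP and 387, 399, 395 and 371 CPM with AdMETTL5 (log2 fold change 0.25, standard error 0.0481, adjusted p = 0.00104), with separate groups. Tpm2 was at 383 ± 44.6 and 364 ± 26.5 CPM (-0.07, 95% interval -0.25 to 0.10, adjusted p = 0.48). Tpm3 was at 231 ± 13.0 and 241 ± 9.90 CPM (0.06, 95% interval -0.05 to 0.17, adjusted p = 0.336). When libraries were scaled by their size alone, the median of all genes moved to 0.13, Tpm3 was called higher (0.20, adjusted p = 0.00141) and the sign of Tpm2 turned (0.07, not called). All 7 calls, that of Tnnt3 with the limit above, were kept in each of the 8 fits that left out 1 library.

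**Figure D3:**
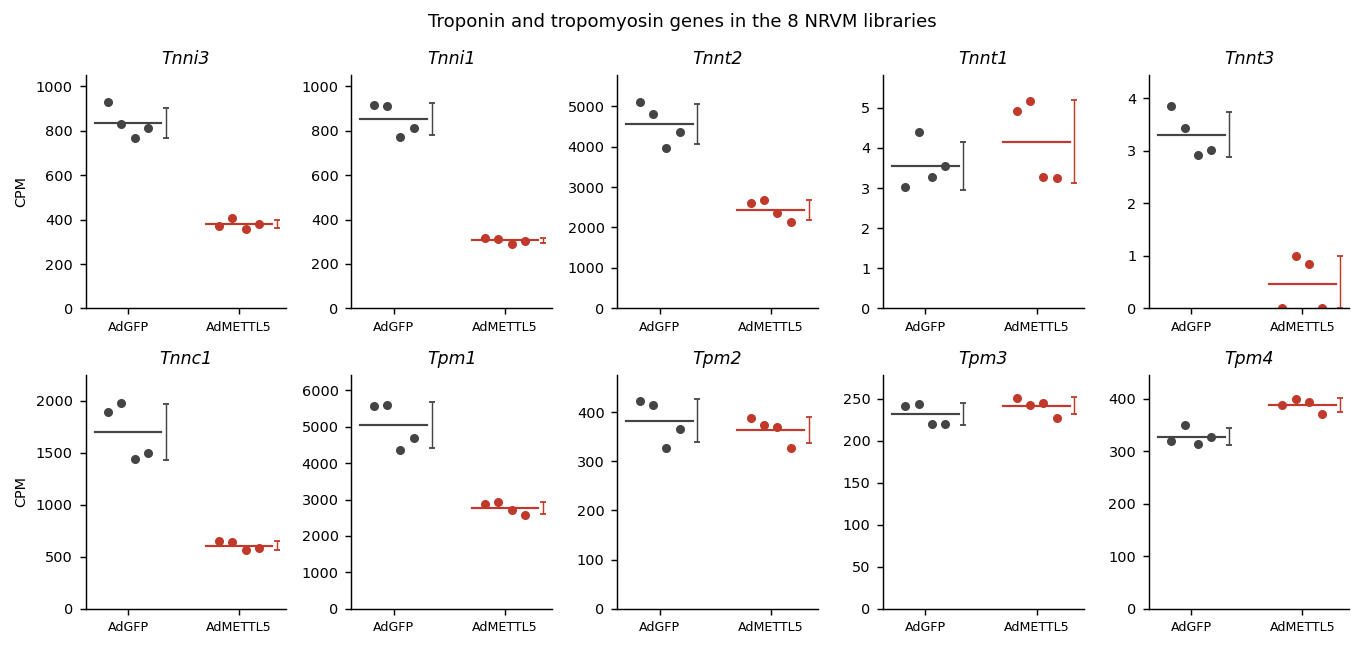
CPM of the 10 genes in the 8 NRVM libraries, a point per library, with the mean as a line and the SD as a bar (n = 4 per group). Tnni3, Tnni1, Tnnt2, Tnnt3, Tnnc1 and Tpm1 are lower in all AdMETTL5 libraries than in all AdGFP libraries, Tpm4 is higher, and Tnnt1, Tpm2 and Tpm3 overlap.

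The isoform shares of NRVMs moved with these changes. Lengths of rat transcripts were not used here, so the shares are of counts and do not compare levels between genes. Tnni1 took 49.6% to 52.3% of the counts of Tnni1 plus Tnni3 with AdGFP and 43.5% to 46.0% with AdMETTL5. The groups did not overlap, and the mean went from 50.5% ± 1.25 to 44.7% ± 1.05 (SD, n = 4). Tpm1 took 84.2% ± 0.748 of the counts of the tropomyosin genes with AdGFP and 73.6% ± 0.566 with AdMETTL5. The shares of the other tropomyosins were higher in every AdMETTL5 library: Tpm4 went from 5.50% ± 0.522 to 10.3% ± 0.334, Tpm2 from 6.39% ± 0.117 to 9.67% ± 0.320 and Tpm3 from 3.88% ± 0.257 to 6.42% ± 0.190. Shares of a total rise where another share falls, and Tpm1 was lower in CPM. By CPM, Tpm2 (383 and 364) and Tpm3 were not called. Counts of Tnnt1 per 1000 counts of Tnni3 were 3.26 to 5.28 with AdGFP and 8.56 to 13.2 with AdMETTL5, with means of 4.29 and 10.9. In this ratio Tnni3 was lower in CPM and Tnnt1 was not called.

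Cardiomyocyte markers fell together with the members in NRVMs. All 7 that the rat table lists were lower (median log2 fold change -1.005, all genes -0.00), and their summed level was 12570 to 13963 CPM with AdGFP and 5479 to 5859 CPM with AdMETTL5. Of the fibroblast markers 6 of 7 were lower (11531 to 12144 and 9112 to 10042 CPM), and of the smooth muscle markers 2 were higher and 3 lower of 7 (3221 to 3945 and 3575 to 4088 CPM). Endothelial markers were higher for 1 of 4, macrophage markers lower for 2 of 4 and skeletal muscle markers lower for 3 of 5. Set against the cardiomyocyte sum, Tnni3 was 62.5 ± 3.96 CPM per 1000 CPM of these markers with AdGFP and 66.8 ± 1.85 with AdMETTL5, with overlap. Tnni1 was 63.6 ± 3.17 and 54.0 ± 2.28, without overlap, and Tnnc1 127 ± 15.5 and 107 ± 7.30, with overlap. Tpm1 was 377 ± 32.9 and 489 ± 31.4, without overlap, and Tnnt2 341 ± 25.9 and 431 ± 44.9, with overlap. Tpm2 was 28.6 ± 2.26 and 64.3 ± 5.90 and Tpm3 17.3 ± 0.551 and 42.6 ± 2.80, both without overlap, although neither was called in CPM. Tnnt1 was 0.266 ± 0.0378 and 0.731 ± 0.177, and Tnnt3 was lower, at 0.247 ± 0.0257 and 0.0819 ± 0.0948, both without overlap. Tpm4 was 24.5 ± 0.744 and 68.4 ± 3.43. This measure was chosen after the values were seen. The markers are themselves lower, so a gene with unchanged CPM rises on this scale and its groups can separate. The share of all genes that separate on it was not computed, so overlap here is a description. The part of a shift between cell types was not tested.

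The other sarcomere genes were mostly lower too. Of 17 other thin filament genes tested 10 were lower and 2 higher (median log2 fold change -0.29), and of 16 thick filament genes 12 were lower and 0 higher (median -1.32). Those with the smallest adjusted p were Tmod1, which caps the pointed end of actin (-1.32), Ldb3, a Z-disc protein (-1.50), the cardiac α-actin Actc1 (-1.49) and the leiomodin Lmod2 (-0.86), and in the thick filament the myosin heavy chains Myh7 (-2.11) and Myh6 (-1.53), the light chain Myl2 (-2.34) and Mybpc3, the cardiac myosin-binding protein C (-1.48). The median of the 10 members was -0.88.

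**Figure D4:**
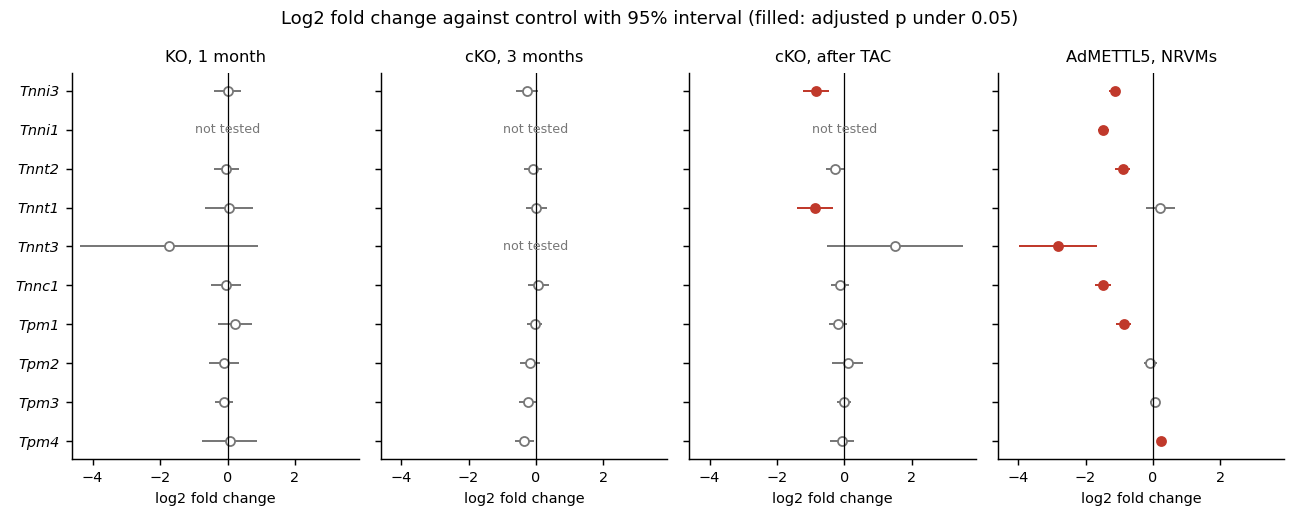
Log2 fold changes of the 10 genes against control in the 4 comparisons within tables, with 95% intervals and filled points where the adjusted p was under 0.05. No point is filled at 1 month or 3 months, Tnni3 (-0.84) and Tnnt1 (-0.87) are filled after TAC, and in NRVMs 6 are filled below 0 and Tpm4 (0.25) above.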

How the data were processed

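RNA was measured by RNA-seq in 32 libraries, 24 of mouse hearts and 8 of NRVMs, in 8 groups of 4. The authors extracted RNA with Trizol, sequenced BGIseq libraries, aligned with HISAT2 2.0.4 to GRCm38 or Rnor_6.0 and estimated counts with StringTie 2.1.4. The submitters' processing notes also name DESeq2 1.4.5. The strand setting and the annotation release are not given in the sources used here. The deposited tables hold estimated counts per gene, not normalized. They were whole numbers, so rounding altered nothing, although unscaled read counts had been planned for. Among the rat genes, 396 have no symbol.

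Counts were scaled by TMM, genes were kept by filterByExpr (minimum count 10, minimum total 15), and groups of 1 table were compared by the quasi-likelihood test of edgeR 4.0.16 (R 4.3.3) with Benjamini-Hochberg adjustment over all genes. A gene was called at an adjusted p under 0.05, and dysregulated if the log2 fold change also passed 1 in either direction. Standard errors were computed from the F statistic, and intervals are at 95%. Contrasts between tables used 1 fit over the 24 heart libraries. Exact two-sided permutation tests compared mean log2 CPM (prior count 2) over the 70 labellings of 4 against 4, with 0.0286 as the smallest p. DESeq2 1.42.0, other scalings and filters, and fits without each library were tried as alternatives. The scripts were tested on simulated data. Floors of 3 counts per library cover counting error only. Lengths came from GENCODE vM21 (GRCm38), and no rat lengths were used. The nearest pair of libraries differed by more than sampling noise (chi-square of 2.16 per degree of freedom), so each was counted. In the tables other than that of 1 month, columns name a group and not a sample, so library numbers only name columns. The control hearts after TAC are titled Ctrl3 and were taken as TAC from their description.

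The 10 genes, the marker lists and the sarcomere lists were chosen with earlier results of these data known. All 10 genes are given in every comparison, and of each list the counts in each direction and at most the 4 genes with the smallest adjusted p. Libraries with METTL5 knocked down were not analysed here.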

Additional observations from a re-analysis of the deposited data

Results flagged for a closer look

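In 4 of 80 groups of 4 libraries, each the CPM of 1 gene in 1 group, a library lay far from the other 3 by Dixon's criterion. The 80 include groups at 0 counts in every library, which could not be flagged. Chance flags about 1 in 20 groups of normally spread values. That rate does not apply to the flags of Tnnt3 and Tnni1, where the other 3 libraries were at 0. After TAC, cKO library 4 held 2712 CPM of Tnni3 against 1653 to 1764 CPM in the other cKO libraries, and without it the log2 fold change was -1.04 (adjusted p = 0.000156, edgeR with Benjamini-Hochberg adjustment). In METTL5-KO hearts at 1 month, library 2 held 62.9 CPM of Tpm3 against 51.6 to 53.0 CPM. Library 3 of that group held 0.574 CPM of Tnnt3 where the others held 0. In the controls at 1 month, library 1 held 0.784 CPM of Tnni1 where the others held 0.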

How the results depend on the processing

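Depth limited Tnni1 and Tnnt3 in hearts, where levels lay near the floor of 3 counts per library, and the spread at 1 month limited that comparison. The counts below are of members called. At 3 months DESeq2 called 2 (Tnni1 and Tnnt3) where edgeR called 0. Both had 0 counts in every control library and failed edgeR's filter, so these calls rest on the cKO counts alone. After TAC the count of 2 ranged from 0 to 3 over the fits without 1 library: it was 0 without cKO library 2 and without control library 4. Without cKO library 1 and without control library 1, 2 or 3 the count includes Tnni1, from which no call is drawn. Tnnt1 was not called in those fits, so a count of 2 there does not mean the same members. It was 0 if a log2 fold change past 1 was also asked for. In NRVMs that demand left 4 of 7, with Tnnt3, which lies near the floor, among them. For control hearts after TAC against 3 months, DESeq2 called 2 and the fit of these groups alone 1. For cKO hearts after TAC against 3 months, the fold demand left 0 of 3. For control hearts at 3 months against 1 month, the fold demand left 1 of 4 (Tnnt3, at 0 counts at 3 months), the fit of these groups alone 1 (Tpm3), and leaving out 1 library 2 to 5. The interaction had 0 to 1 without a library. The cause of these changes was not tested, other than that a fold demand asks for more.

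Scaling by library size alone turned the sign of uncalled values: Tnnc1 at 1 month (0.0175) and after TAC (0.00708), Tpm1 at 3 months (0.0116), Tpm3 (0.14) and Tpm4 (0.0652) after TAC, Tpm2 in NRVMs (0.0656), and Tpm1 in cKO hearts after TAC against 3 months (0.0224). Tpm3 after TAC also turned with DESeq2's size factors (0.0015), with no filter on low counts (0.0102) and in DESeq2's own test (0.0133). Leaving out 1 library turned further uncalled values. At 1 month the ranges were -0.20 to 0.29 for Tnnt1, -0.12 to 0.0548 for Tnnt2, -0.11 to 0.10 for Tnni3, -0.17 to 0.11 for Tnnc1, -0.25 to 0.0216 for Tpm2 and -0.22 to 0.25 for Tpm4. At 3 months they were -0.0583 to 0.0827 for Tnnt1 and -0.00621 to 0.15 for Tnnc1. After TAC they were -0.13 to 0.23 for Tpm2, -0.0432 to 0.0516 for Tpm3 and -0.21 to 0.0354 for Tpm4. Between tables they were -0.11 to 0.0382 for Tnni3 in controls and -0.0682 to 0.0371 for Tpm1 in cKO hearts. Of the values of single genes under all alternatives, 933 kept their direction and their side of the threshold, 16 passed it only in the alternative, 27 lost it and 36 turned their sign.

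Over all genes, the number called moved by more than 1.5 times in several fits. At 1 month it was 13 by DESeq2 and 0 by library size alone (main 1), and at 3 months 108 and, with no filter, 1 (main 12). After TAC it was 1052 with no filter and 479 to 3899 without 1 library (main 2071). For the interaction it was 158 by DESeq2, 0 by library size alone, 2 with no filter, 1 in the fit of the groups alone and 400 without cKO library 4 after TAC (main 3). For control hearts after TAC against 3 months it was 321 by DESeq2, 234 in the groups alone, 11 by library size alone and 8 with no filter (main 45). For cKO hearts it was 1766 by library size alone (main 2692), and for age 3933 in the groups alone (main 6437). A replicate block by the labels' numbers at 1 month left 0 members called, as before. Samples of the same number did not deviate together in every pair there (correlations 0.239, 0.120, -0.107 and 0.078, number 1 being the 1 that correlated best with its own). The numbers were not used as pairs in the main fit, and with 4 libraries per group these correlations cannot settle whether they mark pairs. In the other tables the columns carry no replicate numbers.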
